A study of Homo sapiens with 2 samples.

Results

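The SLC30 and SLC39 families are the zinc carriers of human cells, and 10 of their genes were followed here in 2 samples of HL60 by their labels, a cell line from a human promyelocytic leukaemia. These genes were the exporters SLC30A1, SLC30A5, SLC30A6, SLC30A7 and SLC30A9 and the importers SLC39A1, SLC39A6, SLC39A8, SLC39A10 and SLC39A14. They were chosen by name, as all probe sets that the platform annotation assigns to each of these genes alone, and make up 10 of 19775 genes on the array, with 32 probe sets in all. A probe set is a group of short oligonucleotides that report 1 transcript. The untreated group held 1 sample, and the eltrombopag group held 1 sample given the drug at 3 µg/ml for 36 h. Both were grown in RPMI with 10% serum, and the labels name no vehicle and no culture time for the untreated sample. A difference in either cannot be told apart from the drug. Eltrombopag is a drug that activates the receptor for thrombopoietin and also chelates metal ions, iron above all.

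Most carriers of the SLC30 family (also called ZnT) move zinc out of the cytosol, either across the plasma membrane or into organelles. An exception is SLC30A9, which exports zinc from mitochondria and is counted with the exporters here by its family. Carriers of the SLC39 family (ZIP) move zinc into the cytosol, and some of them, SLC39A8 and SLC39A14 among them, also carry manganese and iron. When zinc in the cell is high, the zinc-sensing transcription factor MTF1 binds metal response elements and activates the metallothionein genes, whose proteins bind zinc, and SLC30A1, which removes it. SLC30A1 and the metallothioneins are therefore the usual transcript readouts of cellular zinc.

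The promoters are shown first, because SLC30A1 stands among the 10 genes as the zinc-responsive one. A RefSeq promoter (build GRCh38.p14, from 250 bases before to 50 bases after an annotated start) was matched for 9 of the 10 genes, and SLC39A14 had no entry. The core of the metal response element was searched as TGCACNC and TGCGCNC on both strands. The promoter of SLC30A1 lies at chr1:211579112-211579411 on the minus strand, and that of the metallothionein gene MT2A at chr16:56608334-56608633 on the plus strand. Each is written 5′ to 3′ on the strand of the gene, with matches to the core in capitals, read on either strand.

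SLC30A1: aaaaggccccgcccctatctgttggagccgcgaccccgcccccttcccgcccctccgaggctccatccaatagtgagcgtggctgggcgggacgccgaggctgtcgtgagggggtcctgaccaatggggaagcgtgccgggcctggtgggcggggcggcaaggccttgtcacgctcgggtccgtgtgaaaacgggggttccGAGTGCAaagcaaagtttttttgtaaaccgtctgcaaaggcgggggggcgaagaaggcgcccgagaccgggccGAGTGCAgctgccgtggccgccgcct

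MT2A: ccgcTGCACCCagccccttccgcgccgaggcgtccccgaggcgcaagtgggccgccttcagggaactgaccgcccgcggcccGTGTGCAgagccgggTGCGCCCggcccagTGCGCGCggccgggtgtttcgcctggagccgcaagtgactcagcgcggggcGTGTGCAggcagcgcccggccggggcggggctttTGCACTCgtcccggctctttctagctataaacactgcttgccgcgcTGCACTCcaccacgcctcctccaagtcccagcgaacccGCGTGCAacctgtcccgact

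SLC30A1 held 2 matches, at 49 bases before and 25 bases after the start, both with the letters TGCACTC on the opposite strand. It was the only 1 of the 9 genes with 2 matches in 1 promoter. SLC30A6 and SLC39A6 had 1 match each, and SLC39A1, SLC39A8 and SLC39A10 had 1 match in 1 of their alternative promoters. SLC30A5, SLC30A7 and SLC30A9 had none, which says only that these letters are not in this window. Of 13 promoters of the 9 genes, 6 held a match. Over all 35116 promoters in the table, 29.55% held 1 match or more, 8.6% held 2 or more and 0.601% held 4 or more. By comparison MT2A and MT1H held 8 matches each, MT1X 4, and MT1B and MT4 3 each. These are 5 of 11 metallothionein genes. MT1A, MT1E, MT1F, MT1G, MT1M and MT3 had no entry and were not searched. No matches in these promoters overlapped. A match is a description of letters and no evidence of binding.

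**Figure D1:**
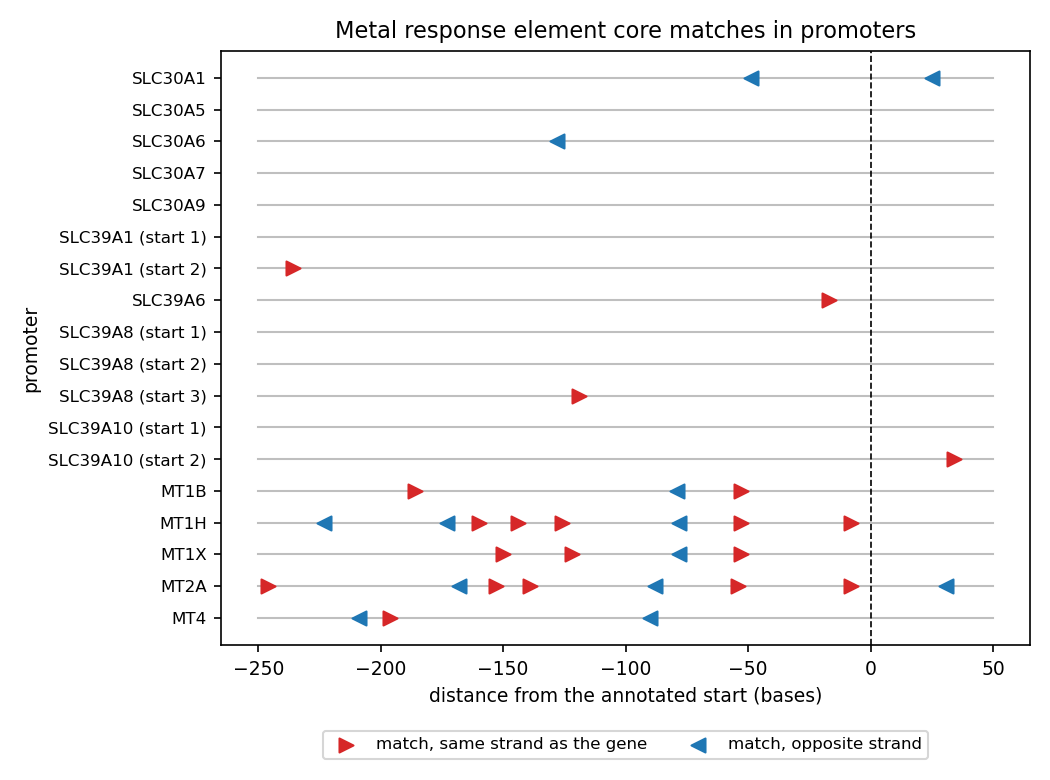
Positions of matches to the metal response element core in promoters of the zinc carriers and of metallothionein genes, as distance in bases from the annotated start (dashed line). Arrowheads show the strand of each match, and genes with several annotated starts have 1 line per start. SLC30A1 has 2 matches, while MT2A and MT1H have 8 each.

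Each value is a MAS5 signal, the summarised brightness of a probe set on a linear scale, and each ratio sets eltrombopag over untreated on the log2 scale. Signals under a floor of 56.91, the 60th percentile of both samples pooled, were raised to it, and a gene counts as measured if its signal exceeded it in 1 sample or both. The gene value is that of its brightest probe set. Each group holds 1 sample, so the treatment cannot be tested and no value has an error between cultures. The only spread available is that between probe sets of 1 gene within these arrays. Over 4373 pairs, the SD of the difference in log2 ratio, divided by the square root of 2, was 0.26. It describes 1 probe set, so the difference of a pair spreads more widely. Of 10324 measured genes, 0.649% had a ratio of 2-fold or more above 0 and 2.27% one of 2-fold or more below it, so higher genes made up 22.26% of these calls. That share was 44.81% after quantile normalization, 43.15% after lowess and 30.6% after median centring. The median ratio of all measured genes was -0.12 on the deposited scale and -0.01, -0.03 and -0.06 after those scalings. Ratios of single genes are therefore also given relative to the median of all genes.

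The labels name HL60 and a hematopoietic stem cell type, and the markers went only in part with them. Of 11 promyelocyte and myeloid markers on the array, 8 were measured, with a median ratio of -0.21, 2 above 0 and 6 below. Of all measured genes, 63.4% had a ratio below 0, with a median of -0.12, so the myeloid counts were near the background. CEBPA, a transcription factor of granulocytes, read 819 untreated and 279 with eltrombopag, a ratio of -1.55, and CSF3R, the receptor for G-CSF, had -1.17. CTSG, a granule protease, had -0.84 and MYB, a progenitor transcription factor, 0.43, from 4349 to 5855. MPO, the myeloperoxidase, read 1556 and 1467. ELANE, LYZ and SPI1 lay below the floor in both samples, as did the stem cell markers CD34, KIT and PROM1; these and MPO were named after their values were seen. The other stem cell markers on the array were measured, GATA2 at 2589 untreated and 2131 with eltrombopag and SPINK2 at 268 and 398. Of 12 plasma cell markers, 12 lay above the floor in both samples, with a median ratio of -1.10, 1 above 0 and 11 below. Of all 19775 genes on the array, 9592 lay above the floor in both samples. The largest ratios in size were IRF4 at -2.37, TNFRSF17 at -2.10, SLAMF7 at -2.01 and FKBP11 at -1.86. The 1 above 0 was DERL3 at 0.63, from 185 to 287. Their summed signal was 19616 untreated and 11551 with eltrombopag, of which JCHAIN made up the largest part in both samples. DERL3 and JCHAIN were named after their values were seen. The summed signal of the myeloid markers was 8805 untreated and 9025 with eltrombopag. MYB, at 4349 and 5855, made up the largest part in both samples, while 6 of the 8 measured markers had ratios below 0. This sum therefore does not give the direction of the other myeloid markers. Markers of B cells were measured for 2 of 5 genes, of T and NK cells for 1 of 6, and of fibroblasts and epithelium for 2 of 8. Whether the plasma cell markers had a part in the values of the zinc carriers was not tested. In bulk RNA, fewer cells of a type and less RNA per cell cannot be told apart.

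All 10 zinc carriers were measured, each above the floor in both samples, and none differed by 2-fold in either direction. The median ratio was -0.07 over the 10 genes, against -0.12 over all measured genes, with 3 ratios above 0 and 7 below. Over all measured genes, 36.6% had a ratio above 0 and 63.4% below. By their brightest probe sets the members thus lay close to the other genes of these arrays. With the second brightest probe set of each gene, the median of the members was -0.42, against -0.13 over all genes. SLC30A7 had the highest ratio and SLC39A8 the lowest. Of the 32 probe sets, 22 lay above the floor in both samples, 2 in the untreated sample alone and 8 in neither.

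**Figure D2:**
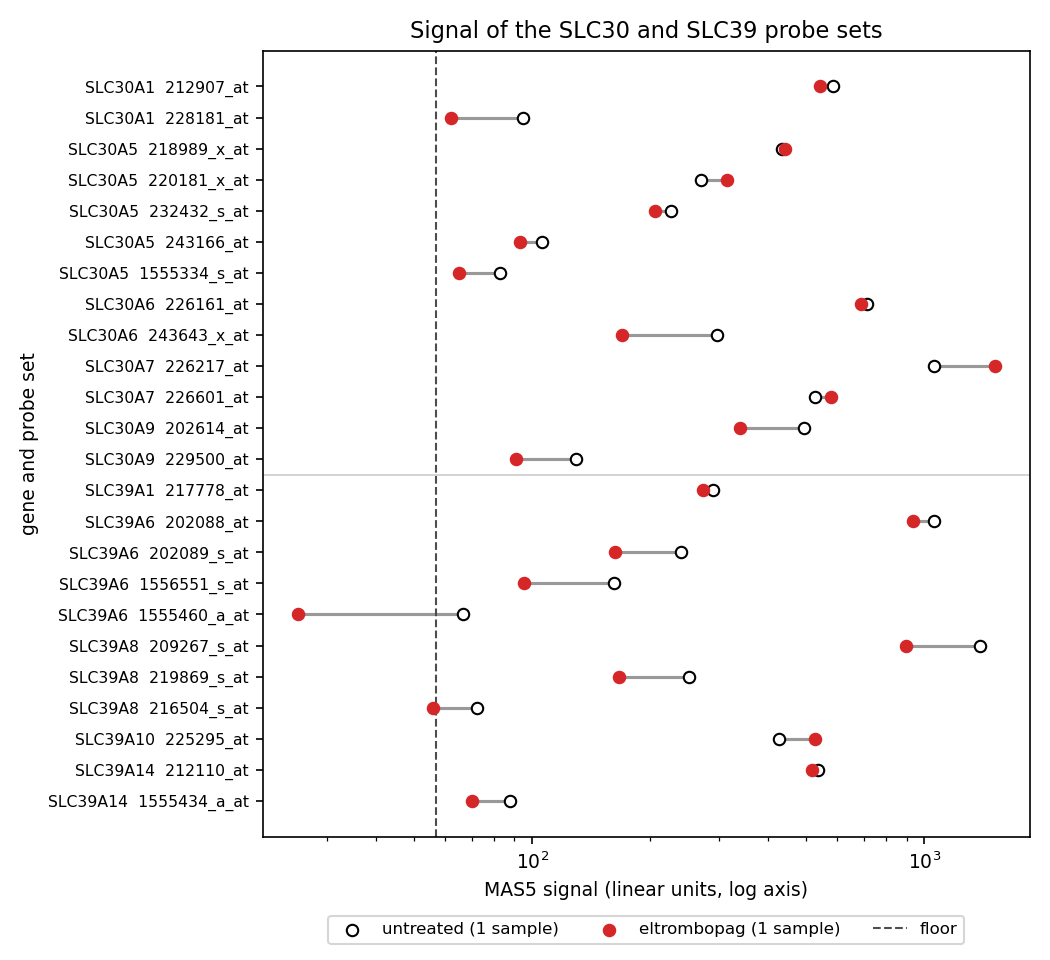
MAS5 signal (log axis) of the 24 probe sets of the zinc carriers with a signal over the floor in 1 sample or both, with the untreated sample as open and the eltrombopag sample as filled circles, 1 sample each. The dashed line is the floor of 56.91. Both SLC30A7 probe sets and that of SLC39A10 are higher with eltrombopag. Those of SLC30A5 go both ways, and the plotted probe sets of the other genes are all lower.

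Among the exporters, SLC30A1, the plasma membrane carrier that removes zinc from the cell, had nearly equal signals in both samples. Its brightest probe set (212907_at) read 585 untreated and 541 with eltrombopag, a ratio of -0.11, or 0.01 above the median of all genes. A dimmer probe set (228181_at) read 94.5 untreated and 62.1 with eltrombopag, a ratio of -0.61. The second value sits just above the floor, and the pair differed by 0.49, while the SD of 0.26 is that of 1 probe set and not of a pair. A further probe set lay far below the floor in both samples. Neither probe set above the floor showed SLC30A1 higher in the eltrombopag sample.

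SLC30A5 and SLC30A6, whose proteins pair to carry zinc into the early secretory pathway, were also nearly level in their brightest probe sets. SLC30A5 read 433 untreated and 440.15 with eltrombopag, a ratio of 0.02. Its 5 probe sets over the floor in both samples ran from -0.35 to 0.22, with 2 above 0 and 3 below. The brightest 2 of them carry the suffix _x_at, which marks probes that may also bind other transcripts, and the remaining 3 were those below 0. SLC30A5 thus had no settled direction. SLC30A6 read 714 untreated and 689.85 with eltrombopag, a ratio of -0.05. Its other probe set above the floor, an _x_at one, read 296 and 169, a ratio of -0.81. That gap of 0.76 was the widest between probe sets of any of the 10 genes.

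SLC30A7, which carries zinc into the Golgi and supplies secreted zinc enzymes such as alkaline phosphatases, had the highest ratio of the 10 genes. Its brightest probe set (226217_at) read 1056 untreated and 1513 with eltrombopag, 1.43-fold higher. The ratio of 0.52 lay 0.64 above the median of all genes, and 482 measured genes (4.67%) had one at least as high. The next probe set (226601_at) read 527 and 578, a ratio of 0.13. Both were higher with eltrombopag, and another one lay below the floor in both samples. The zinc enzymes of the cell surface and secretory pathway that were listed beside it, alkaline phosphatases among them, were all below the floor, 9 of 9 with a probe set here.

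SLC30A9, which exports zinc from mitochondria, was the lowest exporter. Its brightest probe set (202614_at) read 492 untreated and 338 with eltrombopag, 1.46-fold lower. Its other probe set (229500_at) read 129 and 90.7, 1.42-fold lower. The ratios of -0.54 and -0.51 lay 0.03 apart, so the probe sets differed by less than the SD between probe sets. Relative to the median of all genes the first was at -0.42, and 1443 measured genes (14.0%) had a ratio at least as low.

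Among the importers, SLC39A1, a plasma membrane carrier found in most cells, has 1 probe set, which read 289 untreated and 272 with eltrombopag, a ratio of -0.09. The other 4 belong to the LIV-1 subfamily of SLC39. SLC39A6, whose protein pairs with that of SLC39A10, read 1059 and 934 in its brightest probe set (202088_at), a ratio of -0.18. Its next probe sets read 239 and 162, a ratio of -0.56, and 162 and 95.3, a ratio of -0.76. Another went from 66.5 to 25.2, under the floor, and was at least 1.17-fold lower. All 4 probe sets of SLC39A6 were lower with eltrombopag, and by more in the 2 dimmer ones above the floor than in the brightest.

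SLC39A10, an importer with roles in the survival and growth of blood cells, was the highest importer. Its 1 probe set (225295_at) read 425 untreated and 525 with eltrombopag, 1.23-fold higher. The ratio of 0.30 lay 0.42 above the median of all genes, and 1250 measured genes (12.1%) had one at least as high. SLC39A6 and SLC39A10, close relatives in the family, thus lay on opposite sides of 0 in these samples.

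SLC39A8 and SLC39A14 are the carriers of the group that also take up manganese. SLC39A8 read 1388 untreated and 899.9 with eltrombopag in its brightest probe set (209267_s_at), 1.54-fold lower. The next probe set (219869_s_at) read 250.35 and 166, 1.51-fold lower. The ratios of -0.63 and -0.59 lay 0.03 apart. Another probe set went from 72.1 to 55.8, just under the floor. Relative to the median of all genes, SLC39A8 was at -0.50, and 1053 measured genes (10.2%) had a ratio at least as low. Each measured SLC39A8 probe set carries the suffix _s_at, which marks probes shared between transcripts, so no value without such probe sets could be had. SLC39A14 read 536.5 and 517 in its brightest probe set (212110_at), a ratio of -0.05, and 87.7 and 70.2 in the next, a ratio of -0.32. The 2 manganese carriers thus had different values, with SLC39A8 lower and SLC39A14 nearly level in its brightest probe set.

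**Figure D3:**
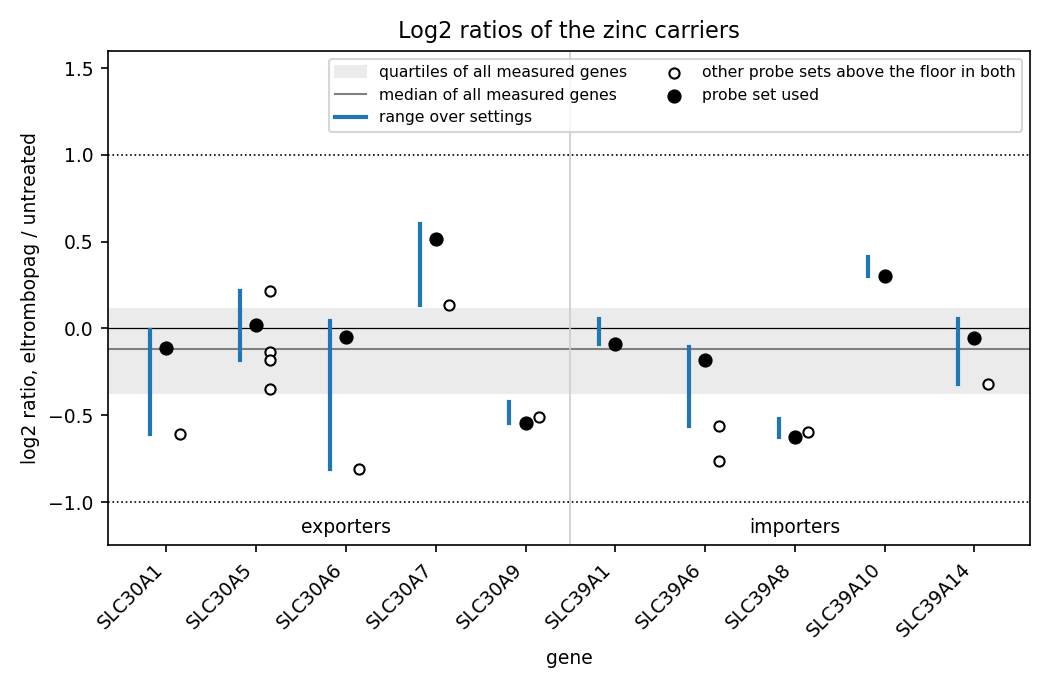
Log2 ratio of eltrombopag over untreated for the 5 exporters and 5 importers, with the probe set used (filled), other probe sets over the floor in both (open) and the range over processing settings (bars). The band marks the quartiles of all measured genes, and dotted lines mark 2-fold. SLC30A7 and SLC39A10 lie above the band, SLC30A9 and SLC39A8 below it, and no probe set reaches 2-fold.

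SLC39A8 was the 1 member of 10 that was at least 1.5-fold lower, while 11.8% of all measured genes were. No member was at least 1.5-fold higher, against 3.49% of all measured genes. Both counts were near the background. The call of SLC39A8 ended under each of the other scalings, where its ratio was -0.57 after median centring, -0.56 after quantile normalization and -0.55 after lowess. SLC30A7 reached 1.5-fold after quantile normalization, with a ratio of 0.60, and after lowess, with 0.59.

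The import and export carriers did not separate. The median ratio of the 5 exporters was -0.05, with 2 genes above 0 and 3 below, and that of the 5 importers was -0.09, with 1 above 0 and 4 below. The importer median lay 0.04 below the exporter median on the deposited scale, but 0.01 above it after quantile normalization and 0.17 above it with the mean over probe sets. The exporters spanned -0.54 to 0.52 and the importers -0.63 to 0.30, so the ranges of the families overlapped. The low end of the exporters was SLC30A9, counted by family though it moves zinc out of mitochondria. The next lowest exporter was SLC30A1 at -0.11. Of the probe sets over the floor in both samples, 9 of 13 were below 0 for exporters and 8 of 9 for importers. Over all 20695 such probe sets on the array, 61.1% were below 0.

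**Figure D4:**
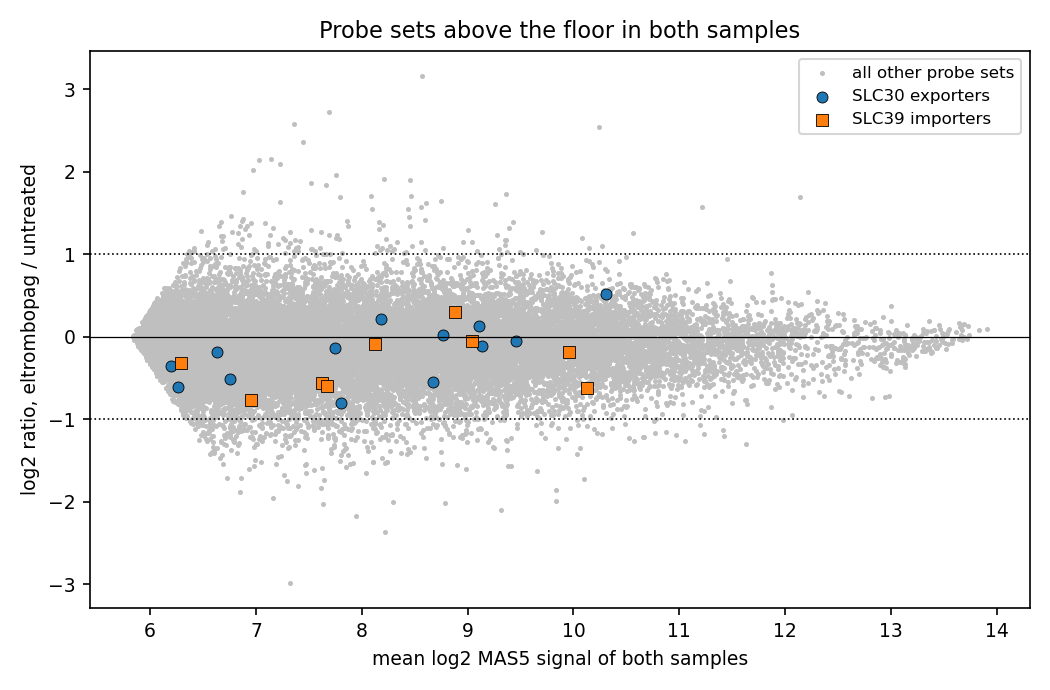
Log2 ratio against mean log2 MAS5 signal for all 20695 probe sets over the floor in both samples, with 13 probe sets of exporters (circles) and 9 of importers (squares). Dotted lines mark 2-fold. The zinc carriers lie inside the cloud of other probe sets at every signal level.

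The dimmer probe sets of several zinc carriers had lower ratios than the brightest. In 5 of the 8 genes with more than 1 probe set over the floor in both samples, the brightest probe set had a higher ratio than the next. This was also so in 55.4% of 4373 genes on the array. SLC30A1, SLC30A6, SLC39A6 and SLC39A14 were near 0 by the brightest probe set and lower by others, while SLC30A9 and SLC39A8 gave nearly the same ratio by both. The probe sets over the floor in both samples had the same sign within each of SLC30A1, SLC30A6, SLC30A7, SLC30A9, SLC39A6, SLC39A8 and SLC39A14, and both signs in SLC30A5. Over the array, the 2 brightest such probe sets had the same sign in 72.5% of 4373 genes.

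The rest of the families added few measured genes. The 5 other SLC30 genes, among them the manganese exporter SLC30A10 at 13.2 untreated and 20.7 with eltrombopag, all lay below the floor in both samples. Of the 9 other SLC39 genes, 6 were measured, with a median ratio of -0.07, 2 above 0 and 4 below. SLC39A7, which releases zinc from the endoplasmic reticulum, had a ratio of -0.29, at 128 untreated and 105 with eltrombopag. SLC39A11 had -0.25, SLC39A3 -0.09 and SLC39A9 0.01. SLC39A4, the intestinal zinc importer, had 0.11. These 5 differed by less than 1.5-fold, while 3.49% of all measured genes were at least that much higher and 11.8% lower. SLC39A13 went from 58.5 to 36.7, under the floor, and was at least 1.03-fold lower, so its size is not known.

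The metallothioneins and MTF1 were set beside SLC30A1 as the other genes of the zinc response. All 6 measured metallothioneins had ratios below 0 on the deposited scale and under each of the 3 scalings, with a median of -0.80, or -0.68 relative to all genes. The share below 0 was 63.4% among all measured genes on the deposited scale. There the 1.5-fold mark was passed downward by 5 of the 6, against 11.8% of all measured genes. The 2-fold mark was passed downward by 2 of the 6, against 2.27%. MT2A read 1300 untreated and 557 with eltrombopag, a ratio of -1.22, and MT1G, MT1F and MT1E had -1.20, -0.82 and -0.79. The metallothionein probe sets used carry the suffix _x_at and the genes share sequence, so these are not 6 independent values. SLC30A1, with a ratio of -0.11 in its brightest probe set, lay above each of the 6, while its dimmer probe set at -0.61 lay among them. MTF1 had ratios of 0.33, 0.40 and 0.44 in its 3 probe sets, and the brightest went from 479 to 601. The transcript of the zinc sensor was thus higher with eltrombopag in each probe set, and those of its metallothionein targets were lower.

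Manganese handling beyond SLC39A8 and SLC39A14 was mixed. Of 7 genes listed, 5 were measured, 0 differed by 2-fold, 3 had ratios above 0 and 2 below, and the median was 0.18. The share above 0 was 36.6% among all measured genes, and their median was -0.12. A 2-fold difference was seen in 0.649% of them upward and 2.27% downward, so 0 of 5 lay near the background. SOD2, the mitochondrial manganese superoxide dismutase, was 1.55-fold lower, from 112 to 72.2, in its 1 probe set with a single gene name. SLC11A2, the iron and manganese importer DMT1, had 0.54 in the probe set used but -0.18 in a second of like brightness, so its direction was not settled. ATP2C1, the calcium and manganese pump of the Golgi, had 0.18 in the probe set used and -0.02 to 0.21 in its others, with both signs. SLC40A1, the iron exporter ferroportin, had 0.20, from 69.5 to 79.9, not far above the floor.

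**Figure D5:**
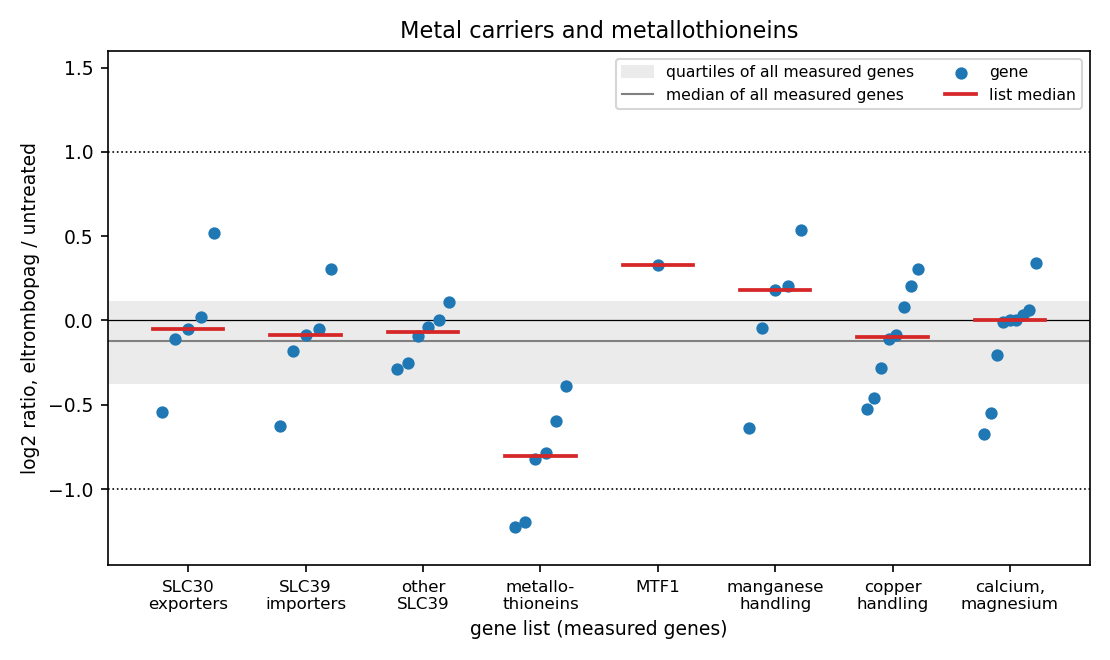
Log2 ratios of measured genes (points) and list medians (bars) for the zinc exporters and importers, other SLC39 genes, metallothioneins, MTF1 and the lists of manganese, copper, and calcium and magnesium handling. The band marks the quartiles of all measured genes, and dotted lines mark 2-fold. The metallothionein median of -0.80 lies below the band, and the medians of the zinc carriers lie within it.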

How the data were processed

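Expression was measured on 1 array per sample. The deposited signal intensity values, 1 per probe set on a linear scale, were made by the authors with MAS5, per the submitters' processing notes; its version and scaling target, and any detection calls, were not among the sources used. Trimmed means of 176.6 untreated and 164.9 with eltrombopag show that the arrays do not share 1 average. Of 54613 probe sets, 41091 named 1 gene, 1801 several and 11721 none in the platform annotation; 41037 matched the RefSeq table, which changed 0 symbols. Values under the 60th percentile were raised to it, log2 was taken, and each gene took the probe set with the highest mean. Counts used 2-fold and 1.5-fold (Python 3.11.15, numpy 2.4.6, pandas 2.3.3, statsmodels 0.14.6). The gene calls were tested on simulated data with changes past 2-fold in bright genes, larger than the ratio of any member. Changes of the size seen in the members were not simulated. The motif search was tested on short sequences with planted matches. The members and lists were chosen with earlier results of these data known. Named were the 10 members, every other measured SLC30 and SLC39 gene, and up to 4 genes per list with the largest ratio in size; markers of B cells, T and NK cells, fibroblasts and epithelium are given by count alone, and exceptions are marked. Likeness of pattern cannot be measured over 2 samples, and protein sequences were not used here. The number of arrays limits the precision. The marker and metal gene lists are each reported once, copper, calcium and magnesium in the closing section. The alternatives were other scalings, floors, probe set rules, fold thresholds, and the omission of members at the floor in 1 sample.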

Additional observations from a re-analysis of the deposited data

How the results depend on the processing

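No member differed by 2-fold in either direction under any of the 9 other scalings, floors and probe set rules, nor by 3-fold on the deposited scale; with 1.5-fold counted, 1 was lower. The exporter median was -0.36 with the mean over probe sets and -0.51 with the second brightest probe set, where the median of all members was -0.42; the median of all measured genes was -0.13 under both. After quantile normalization the members' median was 0.05, and after lowess 0.04, so its sign depended on the scaling. The other floors left each gene's value as it was, since the probe sets used lay above them. Of the single genes' values, 6 moved by more than the SD of 0.26, which is that of 1 probe set and not of a pair. They were those of SLC30A1, SLC30A6, SLC30A7, SLC39A6 and SLC39A14, each under another probe set rule. SLC39A1 and SLC39A10 have 1 probe set and could not move there. SLC30A7 and SLC39A10 stayed above 0 and SLC30A1, SLC30A9, SLC39A6 and SLC39A8 below 0 under each setting that gave a value. For SLC30A1 the ratio was only -0.01 after lowess and -0.02 after quantile normalization. Relative to the median of all genes it ran from -0.48 to 0.02 over the settings, so its direction was not settled. No paired analysis was possible because each group holds 1 sample, so no replicate could be left out either.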

Other observations

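Genes of copper handling, chaperones among them, and carriers of calcium and magnesium were set beside the zinc carriers. Of 10 copper handling genes, 8 were measured, 0 differed by 1.5-fold, and the median ratio was -0.10, with 3 genes above 0 and 5 below. Of all measured genes, 3.49% were at least 1.5-fold higher, 11.8% were at least 1.5-fold lower, and 36.6% had a ratio above 0. ATOX1, the copper chaperone of the secretory pathway, had -0.52, from 668 to 464, COMMD1 had -0.46 and CCS, the copper chaperone of superoxide dismutase, -0.28. ATP7B, a copper-exporting ATPase, had 0.31.

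Of 10 calcium and magnesium carriers, 9 were measured, with a median of 0.00, 5 above 0 and 4 below. Of all measured genes, 36.6% had a ratio above 0, and their median was -0.12. At least 1.5-fold lower was 1 of the 9, and 0 were higher, against 11.8% and 3.49% of all measured genes. ATP2A3, a calcium pump of the endoplasmic reticulum in blood cells, had a ratio of -0.67, from 1038 to 650.3, and -0.93 in its second probe set. ATP2A2, the related pump of most tissues, read 1724 in both samples, with -0.41 in a dimmer probe set. ATP2B1, a calcium pump of the plasma membrane, had 0.34, 0.22 and 0.47 in its 3 probe sets, CNNM3 had -0.55, and CNNM4 was at least 1.15-fold lower. ATP2A2 was named after its values were seen.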
